A study of Mus musculus with 2 samples.

Results

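The Rtl1 antisense and Meg3-proximal miRNAs are 10 genes of the imprinted Dlk1-Dio3 region of mouse chromosome 12: Mir337, Mir540, Mir665, Mir431, Mir433, Mir127, Mir434, Mir136, Mir341 and Mir370. They were chosen by name and position, with earlier results of these data known, and were looked up in the deposited tables by Ensembl identifier. Of the 10 genes, 9 had a row of their own among the 1973 miRNA genes analysed. Mir136 is not analysed here under its own identifier, and the row found at its place is described separately. The libraries hold short RNA from liver of mouse embryos of strain B6NCrl at 12.5 days, untreated as far as the labels say, with males and females pooled. Replicate 1 came from 120 embryos and replicate 2 from 88. Both belong to a single group, so nothing here compares conditions. The labels give both pools 1 donor identifier, so the spread between them may be partly technical, and in a whole organ fewer cells of a type cannot be told apart from less RNA per cell.

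Imprinted genes are expressed from 1 parental chromosome. In this region the protein-coding genes Dlk1 and Rtl1 are expressed from the paternal chromosome, and the noncoding RNAs Meg3, Rian and Mirg, together with the miRNAs processed from the same strand, from the maternal one. Rtl1, a gene derived from a retrotransposon and needed for the fetal capillaries of the placenta, is transcribed against that strand, and miRNAs of the maternal transcript that runs antisense to it are known to direct cleavage of its mRNA. A miRNA gene makes a hairpin whose 2 arms (5p and 3p) can each yield a mature miRNA, and bases 2 to 8 of the mature miRNA, its seed, guide it to partly matched targets. The tables count reads per gene, so the arms could not be separated.

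All members lie on the plus strand (mm10, GENCODE M21 and RefSeq on the same assembly). Mir337 (ENSMUSG00000065526, chr12:109585789-109585885), Mir540 (ENSMUSG00000072900, chr12:109586080-109586146) and Mir665 (ENSMUSG00000076313, chr12:109586314-109586407) stand between Meg3 and Rtl1, in no annotated host gene. Mir431 (ENSMUSG00000070080, chr12:109590447-109590537), Mir433 (ENSMUSG00000070072, chr12:109591715-109591838), Mir127 (ENSMUSG00000070076, chr12:109592846-109592915), Mir434 (ENSMUSG00000070133, chr12:109594506-109594599) and Mir136 (ENSMUSG00000104858, chr12:109595327-109595388) stand opposite an exon of Rtl1, which itself is on the minus strand (chr12:109589193-109600330). Mir341 (ENSMUSG00000070101, chr12:109611500-109611595) and Mir370 (ENSMUSG00000065433, chr12:109618258-109618336) lie in introns of Rian. Relative to the start of Mir431, Mir337 begins at -4.658 kb and Mir370 at 27.811 kb.

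The mature arms of the members opposite Rtl1 are shown because each is an exact antisense copy of part of the Rtl1 coding sequence. They are RefSeq sequences on GRCm38.p6, 5′ to 3′, with the seed in capitals.
miR-431-5p: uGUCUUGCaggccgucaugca
miR-431-3p: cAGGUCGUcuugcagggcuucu
miR-433-5p: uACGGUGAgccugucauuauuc
miR-433-3p: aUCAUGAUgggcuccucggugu
miR-127-5p: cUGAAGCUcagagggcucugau
miR-127-3p: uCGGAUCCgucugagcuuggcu
miR-434-5p: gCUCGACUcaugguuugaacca
miR-434-3p: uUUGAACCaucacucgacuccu
miR-136-5p: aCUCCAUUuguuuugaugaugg
miR-136-3p: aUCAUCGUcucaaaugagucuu
Each of these 10 arms matched the Rtl1 transcript over its whole length, on the opposite strand and without a mismatch, and no other protein-coding transcript of GENCODE M21 held such a match. The matches follow from the genes lying on opposite strands of the same DNA. All lay within the coding sequence, which spans bases 148 to 5379 of the 6358-base transcript. The Mir136 arms matched near its start (bases 164 to 185 and 199 to 220), those of Mir434 at 965 to 986 and 1002 to 1023, those of Mir127 at 2642 to 2663 and 2676 to 2697, those of Mir433 at 3749 to 3770 and 3801 to 3822, and those of Mir431 near its end (5028 to 5049 and 5072 to 5092). The Rtl1 site of miR-127-3p, for example, reads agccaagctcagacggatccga on the mRNA strand. None of the 10 arms of Mir337, Mir540, Mir665, Mir341 and Mir370 matched any of the 58797 protein-coding transcripts in this way. Among the 1674 mature sequences of the RefSeq mouse table, 59 (3.52%) had an exact antisense match to a protein-coding transcript. Rtl1 mRNA was not measured in these libraries.

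**Figure D1:**
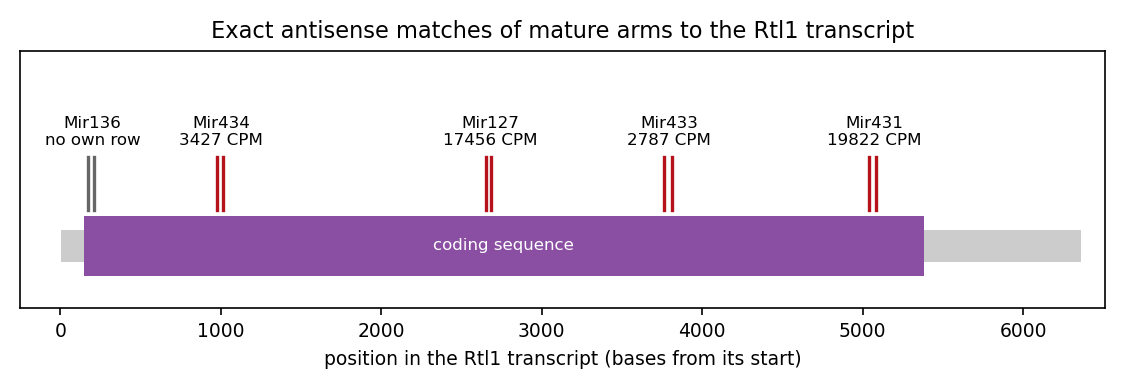
Map of the Rtl1 transcript, with position in bases from its start on the x axis, the coding sequence as the tall bar and the rest of the transcript as the thin bar. Each vertical line marks the exact antisense match of 1 mature arm, labelled with the gene; the 5 pairs of lines are spread from base 164 to base 5092. The 4 counted genes (red) also carry their mean level, from 2787 CPM (Mir433) to 19822 CPM (Mir431), and Mir136 (grey), which has no row of its own, carries none.

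The 20 mature arms of the 10 genes carried 20 different seeds, so no 2 members share a seed. In the RefSeq table, 18 of these seeds occurred in no other mouse gene. The exceptions were miR-370-5p, whose seed is also that of miR-1193-3p, from a gene farther along the same region, and miR-540-3p, whose seed is also that of miR-6915-5p. Mir1193 stood at 3842 ± 267 CPM (SD, n = 2; counts per 1000000 sense counts on miRNA genes), above the 1310 ± 144 CPM of Mir370. These are levels of whole genes and do not give the level of the arms that share the seed. Mir6915 had no level here. The shared seed of the first pair is in capitals.
miR-370-5p: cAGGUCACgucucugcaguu
miR-1193-3p: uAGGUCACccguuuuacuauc
GC content of the arms ran from 36.4% (both arms of Mir136) to 76.2% (miR-341-5p).

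Some arms repeat a run of bases, in capitals below. The longest run shared by 2 arms was 10 bases, within Mir431, followed by 9 bases within Mir434 and 9 bases between Mir337 and Mir431. The median over all 190 pairs of arms was 4 bases.
miR-431-5p: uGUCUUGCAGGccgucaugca
miR-431-3p: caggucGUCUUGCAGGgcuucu
miR-434-5p: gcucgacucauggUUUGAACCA
miR-434-3p: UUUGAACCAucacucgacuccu
miR-337-5p: cggCGUCAUGCAggaguugauu
miR-431-5p: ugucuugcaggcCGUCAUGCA
No member's hairpin shared more than 14 bases with a miRNA hairpin at another place in the RefSeq table (14 for Mir665, 13 for Mir540 and 10 to 12 for the others), and no mature arm of a member occurred in another hairpin. Reads that aligned to several places, 28.8% and 31.1% of all reads of replicates 1 and 2, were left out of the counts. How many of those came from members was not tested. Any gene whose sequence recurs at another place can lose reads in this way. Shares, ranks and medians below therefore hold for counted reads only, and the effect on them was not tested.

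Among reads counted at a single place, the members formed an abundant group in day 12.5 liver. Replicate 1 had 198869 sense counts on the 9 genes and replicate 2 had 202717, or 5.77% and 5.73% of the 3447858 and 3534816 sense counts on miRNA genes (mean 5.75% ± 0.0234, SD, n = 2). All 9 exceeded 10 CPM, the level used here for detection, in both libraries, and the lowest mean lay at 1310 CPM. The median of the 9 means was 2805 CPM, against 52.7 CPM for all 464 genes with at least 10 counts. Mature miRNAs are read whole, so counts were not divided by length, but how well each miRNA is captured was not measured and ratios between genes need not be ratios of true levels.

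The 4 counted genes opposite Rtl1 held 75.7% of the members' counts in replicate 1 and 75.5% in replicate 2. Most of that came from Mir431 and Mir127, which together made up 64.7% and 64.9%. Mir431 had 69284 counts in replicate 1 and 69106 in replicate 2. These are 20095 and 19550 CPM, a mean of 19822 ± 385 CPM (SD, n = 2). By these counts Mir431 ranked 12 and 15 among all genes. Mir127, one of the best known miRNAs against Rtl1, had 59391 and 62517 counts. Its levels of 17225 and 17686 CPM gave a mean of 17456 ± 326 CPM, at rank 18 in both libraries. Mir431 exceeded Mir127 in both libraries, by 1.17 and 1.11 times, a difference of 2370 CPM that is larger than the SD of either gene.

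The other members opposite Rtl1 were lower than this pair, although they lie on the same strand between or beside them. Mir434 had 11067 and 12882 counts, or 3210 and 3644 CPM (mean 3427 ± 307 CPM, SD, n = 2). Mir433, which lies between Mir431 and Mir127, had 10832 and 8597 counts, or 3142 and 2432 CPM (mean 2787 ± 502 CPM). Relative to its mean, this was the largest spread of any counted member, and the ratio of Mir431 to Mir433 was 6.40 in replicate 1 and 8.04 in replicate 2. Mir433 was above Mir341, Mir540 and Mir665 in replicate 1 and below Mir341 in replicate 2.

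Of the members before Rtl1, Mir337 was the highest. It had 18039 and 18935 sense counts, or 5232 and 5357 CPM (mean 5294 ± 88.2 CPM, SD, n = 2), at ranks 44 and 46. Mir540 had 8490 and 7789 counts, or 2462 and 2204 CPM (mean 2333 ± 183 CPM). Mir665 had 7848 and 8073 counts, or 2276 and 2284 CPM (mean 2280 ± 5.41 CPM). The 3 genes stand within 1 kb of each other, and Mir337 exceeded Mir540 by 2.12 and 2.43 times, while Mir540 and Mir665 changed places between the libraries.

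The members inside Rian were the farthest from Rtl1. Mir341 had 9051 and 10549 counts, or 2625 and 2984 CPM (mean 2805 ± 254 CPM, SD, n = 2). Mir370 was the lowest counted member, with 4867 and 4269 counts, or 1412 and 1208 CPM (mean 1310 ± 144 CPM). The full range of the counted members, from Mir431 to Mir370, was a ratio of 14.2 in replicate 1 and of 16.2 in replicate 2.

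In order of mean level the members ran Mir431, Mir127, Mir337, Mir434, Mir341, Mir433, Mir540, Mir665 and Mir370. The steps between the first 5 genes, and the last step from Mir665 to Mir370, were larger than the larger SD of the 2 genes compared and had the same sign in both libraries. Mir341 and Mir433 (17.8 CPM apart), Mir433 and Mir540 (454 CPM apart) and Mir540 and Mir665 (52.9 CPM apart) did not differ beyond their spread. With n = 2 these spreads are themselves imprecise.

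**Figure D2:**
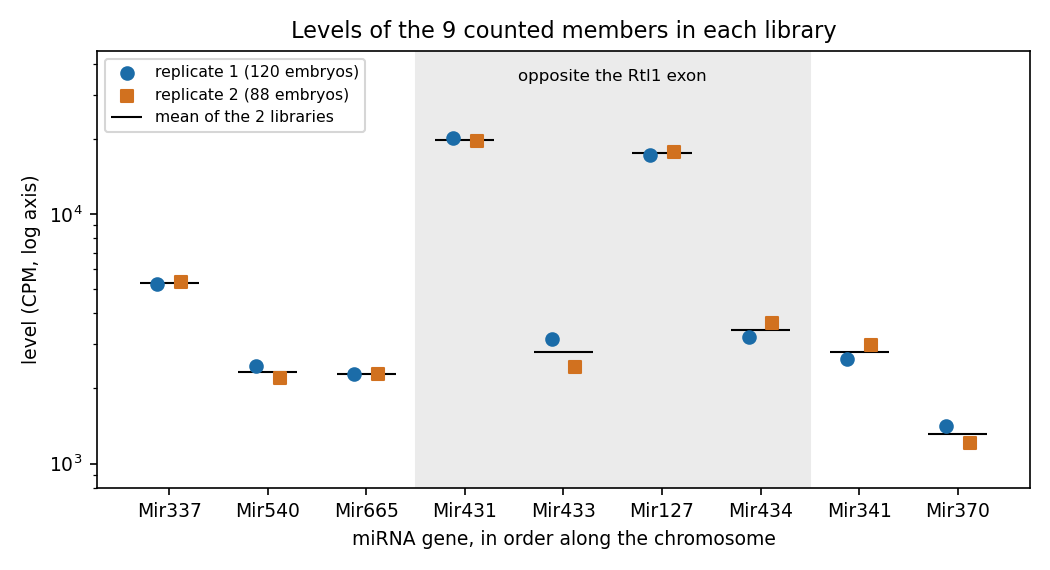
Level of each counted member (y axis, CPM on a log axis) in the order of the genes along the chromosome (x axis), with circles for replicate 1, squares for replicate 2 and a line at their mean. Mir431 and Mir127 sit between 17225 and 20095 CPM in both libraries, Mir337 at 5232 and 5357 CPM, and the other 6 between 1208 and 3644 CPM; the shaded genes lie opposite the Rtl1 exon.

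The opposite strand was nearly empty at the members. Of the 9, 8 had 0 opposite-strand counts in both libraries. Mir337 had 124 in replicate 1 and 116 in replicate 2, which were 0.683% (95% Clopper-Pearson interval 0.568 to 0.813) and 0.609% (0.503 to 0.730) of its reads on both strands. Per 1000000 sense counts that is 34.4 ± 2.23 (SD, n = 2), set against 5294 ± 88.2 on the sense strand. M21 places another miRNA gene, Mir3544, on the minus strand inside the Mir337 hairpin (chr12:109585813-109585873), and it is not analysed here by sense counts. Whether these reads came from it was not tested. Intervals cover counting error only, since reads without molecular identifiers are not independent molecules.

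At the place of Mir136 the tables have a row under identifier ENSMUSG00000070129 in version 1. M21 gives version 2 of that identifier to Mir3071, on the minus strand, whose 80-base hairpin contains the reverse complement of the whole 62-base Mir136 hairpin. The row held 3399 sense and 4 opposite counts in replicate 1 and 3717 sense and 6 opposite counts in replicate 2. If counted as sense, this is 986 and 1052 CPM (mean 1019 ± 46.5 CPM, SD, n = 2), below every counted member. The sources used here do not give the strand of version 1, so the row cannot be assigned to Mir136 or Mir3071. The other 4 rows of the region that M21 places on the minus strand, Mir299b among them, all had more opposite than sense counts in both libraries. The row at Mir136 had the reverse. With that row the members' sum was 5.85% of the sense counts in place of 5.75%. The mature arms of Mir3071, with the seed in capitals, overlap those of Mir136 on the other strand.
miR-3071-5p: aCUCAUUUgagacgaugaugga
miR-3071-3p: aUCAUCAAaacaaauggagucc

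The other listed miRNA genes of the same interval were lower than every counted member. Members and neighbours were listed with earlier results of these data known, so this separation is a description and not a test. Apart from the row at Mir136, 7 neighbours summed to 0.103% ± 0.00962 of the sense counts (SD, n = 2), with a highest mean of 400 CPM. Mir1906-1, Gm23912 and Mir882, also listed in the interval, had at most 3 sense counts in either library and were left out of this sum. Mir673 stood at 400 ± 11.3 CPM, Mir493 at 332 ± 46.0 CPM and Mir770, in an exon of Meg3, at 252 ± 40.1 CPM. Mir1188, which like Mir341 lies in an intron of Rian, stood at 22.5 ± 1.43 CPM, and Mir341 exceeded it by 122 and 127 times. Mir3070a and Mir3070b stood at 17.6 ± 0.108 and 1.86 ± 0.235 CPM. Mir432, opposite the same Rtl1 exon as Mir434, had 0 counts in replicate 1 and in replicate 2, where 3 counts, the limit that a count of 0 allows, would be 0.870 and 0.849 CPM.

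Farther along the region, from 118.613 kb after the start of Mir431, stands the group from Mir379 to Mir410 and Mir3072. Its 34 listed genes held 11.8% ± 0.178 of the sense counts (SD, n = 2). Their means ran from 0 to 23474 CPM with a median of 643 CPM, and 29 of 34 reached 10 CPM in both libraries, set against 9 of 9 members. By sense counts its highest genes were Mir411 at 23474 ± 1270 CPM, Mir487b at 17178 ± 425 CPM and Mir369 at 16074 ± 197 CPM, so that Mir431 and Mir127 stood in the same range as the top of that group. Of all sense counts on listed genes of the 3 groups, the members held 32.1% in replicate 1 and 32.5% in replicate 2. These sums leave out opposite-strand counts. The 4 rows of the region that M21 places on the minus strand, other than the one at Mir136, had 156660 opposite-strand counts in replicate 1 and 153806 in replicate 2. One of them, Gm24321, which lies opposite Mir409, had 30408 and 27745 per 1000000 sense counts, more than Mir411. With these counts added to the region the members held 25.6% and 26.1% of it. Since levels of different miRNAs depend on capture, these group sums are descriptions and no difference between the groups was tested.

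**Figure D3:**
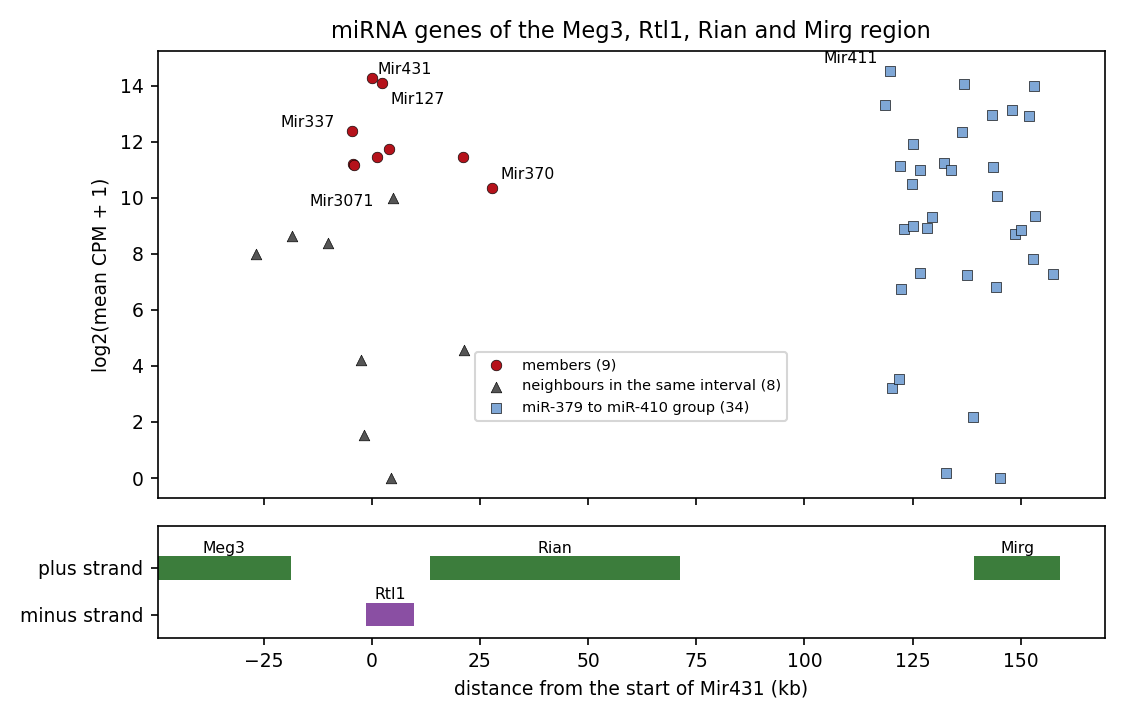
Mean level of the listed miRNA genes of the region (y axis, log2 of CPM plus 1) by distance from the start of Mir431 in kb (x axis). Circles are the 9 members, triangles the 8 neighbours and squares the 34 genes of the miR-379 to miR-410 group. The neighbours include the row at the place of Mir136, labelled Mir3071, which cannot be assigned to Mir136 or Mir3071. The lower strip shows Meg3, Rtl1, Rian and Mirg by strand. The members lie between 1310 and 19822 CPM, above every neighbour, and the downstream group spreads from 0 to 23474 CPM. The lists were drawn with earlier results of these data known.

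By likeness of level, measured as the distance of log2(CPM + 1) over the 2 libraries, the genes nearest to Mir431 were Mir30e (distance 0.0463, 19394 ± 204 CPM) and Mir143 (0.0964). The genes nearest to Mir127 were Mir487b (0.0707), of the downstream group, and Mirlet7i (0.162). Those nearest to Mir337 were Mir381 (0.0359, 5243 ± 21.9 CPM), also of the downstream group, and Mir425 (0.125). With 2 libraries of 1 group this likeness reflects level more than pattern.

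The members differed little between the libraries, by at most 0.31 in either direction on the log2 scale. Ratios are replicate 2 over replicate 1 on library sizes scaled by TMM, which corrects for composition. All 9 members were within 1.5-fold. Mir341 had a log2 ratio of 0.24 (95% interval 0.20 to 0.28), or 1.18-fold, and Mir434 the same ratio (0.20 to 0.27 for its interval). Mir433 was the most different member, at -0.31 (-0.36 to -0.27), and Mir370 had -0.17 (-0.23 to -0.11). Mir540 had -0.11, Mir127 and Mir337 had 0.09 each, Mir665 had 0.06 and Mir431 had 0.02. The ratios thus had both signs among genes of 1 strand and neighbourhood. Among the members opposite Rtl1, Mir433 was lower and Mir434 higher in replicate 2. The intervals cover counting error only, and each ratio compares 1 library with 1 library.

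By the two-sided exact binomial test with Benjamini-Hochberg adjustment over all genes, 8 of 9 members differed between the libraries (5 higher and 3 lower in replicate 2), where 40.3% of the 464 genes tested were called, 22.0% higher and 18.3% lower. The 5 were Mir337, Mir665, Mir127, Mir434 and Mir341, the 3 were Mir540, Mir433 and Mir370, and Mir431 did not pass (adjusted p = 0.119, exact test). Adjusted p-values of the others ran from 1.3e-50 for Mir433 to 0.0255 for Mir665 in the same exact test. This test allows for sampling of reads alone, and most abundant genes passed it. Of the 113 genes with at least 5000 counts over both libraries, a group set after the data were seen that holds all 9 members, 85.8% were called. The members' median absolute log2 ratio was 0.11, against 0.15 for those 113 genes and 0.26 for all 464.

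The direction of the smallest ratio, that of Mir431, depended on the scaling. With total counts in place of TMM, 3 members were called higher and 4 lower, where 38.4% of the 464 genes were called (16.6% higher and 21.8% lower), and Mir431 turned to -0.04 and was called lower (adjusted p = 1.37e-06, exact test). The members called numbered 7 with DESeq2 size factors, where 37.7% of all genes were called, 9 without the filter on low counts (23.7%) and 9 with the counts of both strands (41.4%). In edgeR's negative binomial exact test with an assumed coefficient of variation of 0.1, which allows for variation between pools, 0 of 9 members passed, and 0 had an unadjusted p under 0.05, where 2.59% of all genes were called. The coefficient estimated from both libraries over all genes was 0.163. Each side of these tests is 1 library, so they compare 2 pools and not conditions. Among the neighbours, leaving out the row at Mir136, 0 were higher and 2 (Mir770 and Mir493) were lower of 6 tested, and in the downstream group 11 were higher and 10 lower of 32, by the same binomial test.

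**Figure D4:**
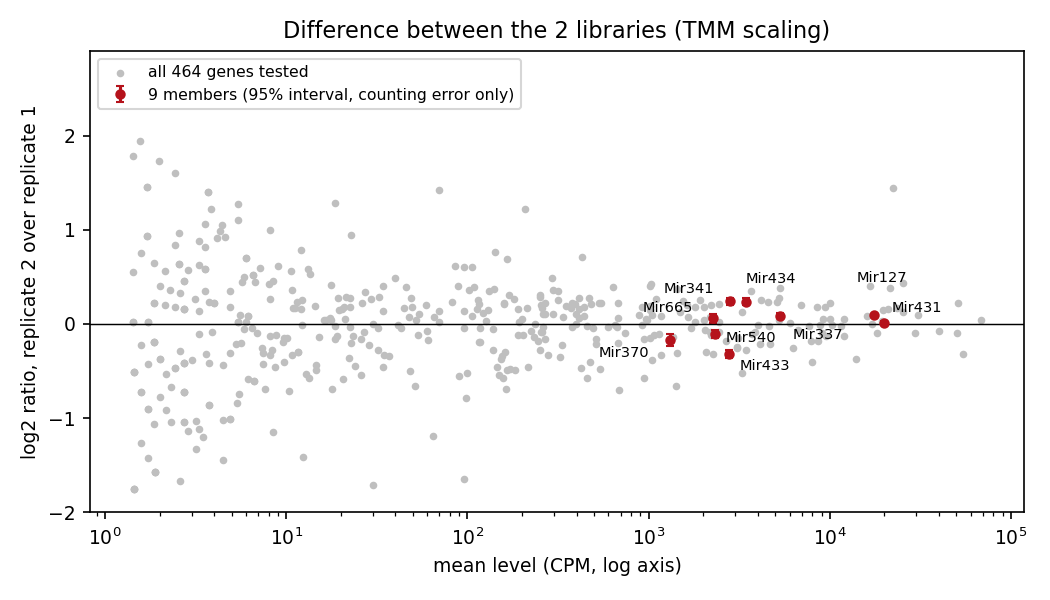
Log2 ratio of replicate 2 over replicate 1 (y axis) by mean level in CPM (x axis, log axis) for all 464 genes tested (grey) and the 9 members (red, with 95% intervals for counting error only). The members lie between -0.31 and 0.24, inside the spread of genes of like level.

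Markers of the organ's cell types were counted in the same libraries. Mir122, which marks hepatocytes, stood at 60913 CPM in replicate 1 and 47128 CPM in replicate 2. The erythroid markers did not move together: Mir451a stood at 12422 and 32496 CPM, Mir144 at 3300 and 4042 CPM and Mir486 at 1204 and 892 CPM. The endothelial Mir126a stood at 68816 and 68165 CPM. The log2 ratios were -0.32 for Mir122, 1.44 for Mir451a, 0.35 for Mir144, -0.38 for Mir486 and 0.04 for Mir126a, beside -0.31 to 0.24 for the members. The myeloid Mir223 had -0.26. Of the mesenchymal markers, Mir143 had 0.15, Mir145a 0.31 and Mir214 0.23, while Mir199a-1, with 23 and 11 counts, had -1.01. Which cells of the liver carry the members, and the part of cell composition in their ratios, was not tested.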

How the data were processed

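For each library the authors deposited raw counts of reads per gene, for both strands together, the sense strand and the opposite strand. Per the file headers and lists, the assembly was mm10 and the annotation GENCODE M4. For these files the aligner and counter were not given in the sources used here. Lines of unmapped reads (29.4% and 25.8%) and of reads aligned to several places (28.8% and 31.1%) entered neither library sizes nor tests. Nor did the lines of reads on no gene in the sense direction (10.6% and 11.0%) and of ambiguous reads (at most 1). The line of reads on no gene was taken for the sense strand, so it includes reads opposite a gene. The libraries held 11057424 and 11013976 reads.

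Identifiers were matched without version to GENCODE M21, on the same assembly (1894 of 1973 found, 79 of them in another version). Levels are sense counts per 1000000 sense counts. The main test was a two-sided exact binomial test per gene against TMM-scaled library sizes, with Clopper-Pearson intervals at 95%. It ran over all genes with at least 10 counts in R 4.3.3 with edgeR 4.0.16 and DESeq2 1.42.0 size factors as an alternative; 0.5 counts were added for log2 ratios, and the threshold was 0.05. The test was checked on counts simulated with counting error alone, a setting that leaves out variation between pools.

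Genes named were all members, the listed neighbours, the 3 highest downstream genes, the 2 nearest genes by level of the 3 highest members and the cell type markers. Members and lists were chosen with earlier results of these data known. Mir199a-2 and Mir199b were added after the counts of Mir199a-1 were seen. Sequences come from RefSeq (GRCm38.p6), where all 10 members were found, and transcripts from GENCODE M21.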

Additional observations from a re-analysis of the deposited data

Results flagged for a closer look

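Counts outside the sense strand were found at Mir337. The opposite strand of this gene had 124 counts in replicate 1 and 116 in replicate 2, above the 3 counts that an empty feature allows, while the other 8 counted members had 0 there.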

How the results depend on the processing

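The members' share of sense counts was 5.73% to 5.77% when either library was left out. It was 5.20% with counts of both strands, 3.77% without Mir431, 1.82% of all reads and 5.85% with the row at the place of Mir136, an alternative chosen after seeing the data. The number of members called between the libraries was 7 with total-count scaling (38.4% of all genes called) or DESeq2 size factors (37.7%), 9 without the count filter (23.7%) or with both strands (41.4%), and 0 in edgeR's test at 0.1 (2.59%), which allows for more than counting error. The log2 ratio of Mir431 reversed to -0.04 with total-count scaling and to -0.004 with DESeq2 size factors. Mir665 lost its call with both scalings and Mir337 with total counts. All 9 members stayed detected at 1 and 100 CPM. No paired analysis was possible because the 2 libraries form a single group. With 2 libraries an SD is imprecise.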
